A study of Rattus norvegicus with 10 samples.

Results

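The laminin chains of the rat mammary gland were described after 12 weeks of estradiol (E2) in 5 ACI rats and 5 BN (Brown Norway) rats. The members are the probe sets of the array that carry the symbol of 1 of 9 laminin genes alone, under its current or a former name. These are 13 of the 31042 probe sets tested, and every one was kept. All rats were females of the ACI/SegHsd or Brown Norway strain and received E2 from implants placed under the skin at 9 weeks of age. According to the study's methods, all were also given bromodeoxyuridine shortly before they were killed. Each rat gave 1 Affymetrix Rat Genome array of mammary gland RNA, and all levels below are on the log2 scale of the deposited values. Untreated rats are not among these arrays, so each difference separates 2 strains that both received E2, and no response to E2 was measured.

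Laminins are large secreted proteins of the basement membrane, the thin sheet of matrix on which epithelial cells rest and which also wraps blood vessels, fat cells, muscle fibers and nerves. Each laminin is a cross-shaped trimer of an alpha, a beta and a gamma chain, and the alpha chain carries the main binding sites for cell surface receptors. In the mammary gland the basement membrane lies between the myoepithelial cells and the stroma, and contact of the epithelium with laminin is known to support its polarity and milk protein expression in culture. *Lamb3*, *Lama3*, *Lama5* and *Lama1* were taken here as epithelial chains, *Lama4* and *Lama2* as vascular and stromal chains, and *Lamb1*, *Lamb2* and *Lamc1* as partners shared by many trimers. The classes are not clean, since *Lama5* is also deposited around mature vessels.

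The values had a floor of 2.23 and array medians of 3.35 to 3.53. Where all 5 rats of a strain read under 4, the probe set is called near background there, and any fold against that strain is given as a minimum. Correlations between arrays over all probe sets ran from 0.981 to 0.995 between ACI rats and from 0.957 to 0.992 between BN rats, and those across strains from 0.935 to 0.960. The animal IDs of rats 1 to 3 of each strain open with S and those of rats 4 and 5 with H. No source used here gives the meaning of these letters, so differences within each ID series accompany the main results. The samples of each strain were deposited as a separate run, so deposit and strain cannot be told apart, and the protocol text for RNA from BN rats mentions ACI rats although the strain label reads Brown Norway. The epithelial defining genes *Krt8*, *Krt18*, *Epcam*, *Krt5* and *Krt14* were above background, whereas *Foxa1* and *Cdh3* were near background in both strains.

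Among the laminin chains, ACI glands had more *Lamb3* and BN glands had more *Lama4*. The fit over all probe sets with limma, at a Benjamini-Hochberg adjusted p under 0.05, called 2 of the 13 laminin probe sets as higher in ACI rats (*Lamb3* and the dimmer of 2 probe sets of *Lamc1*) and 1 as higher in BN rats (*Lama4*). Over the whole array 6.79% of probe sets were called higher in ACI rats and 5.87% higher in BN rats, and counts this small do not set the family apart from those shares. With each array centred on its median, the split over the array turned, with 2454 calls on the ACI side and 2807 on the BN side, compared with 2108 and 1822 for the values as deposited. At an unadjusted limma p under 0.05 the number was 4, with *Lama5* added. Of the 10 probe sets not called, 3 lay at the floor of the data in all or all but 1 of the rats. Of the 10 probe sets above the floor, 6 had a higher mean in ACI rats and 4 in BN rats. The median log2 fold change, ACI minus BN, was 0.22 over these 10, compared with 0.04 over the 14525 probe sets of the array with a mean of at least 4. The values of the strains did not overlap for 1 of the 13 probe sets, *Lamb3*, compared with 12.3% of all probe sets. Each of the 10 kept its direction under quantile normalization and under centring of each array.

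**Figure D1:**
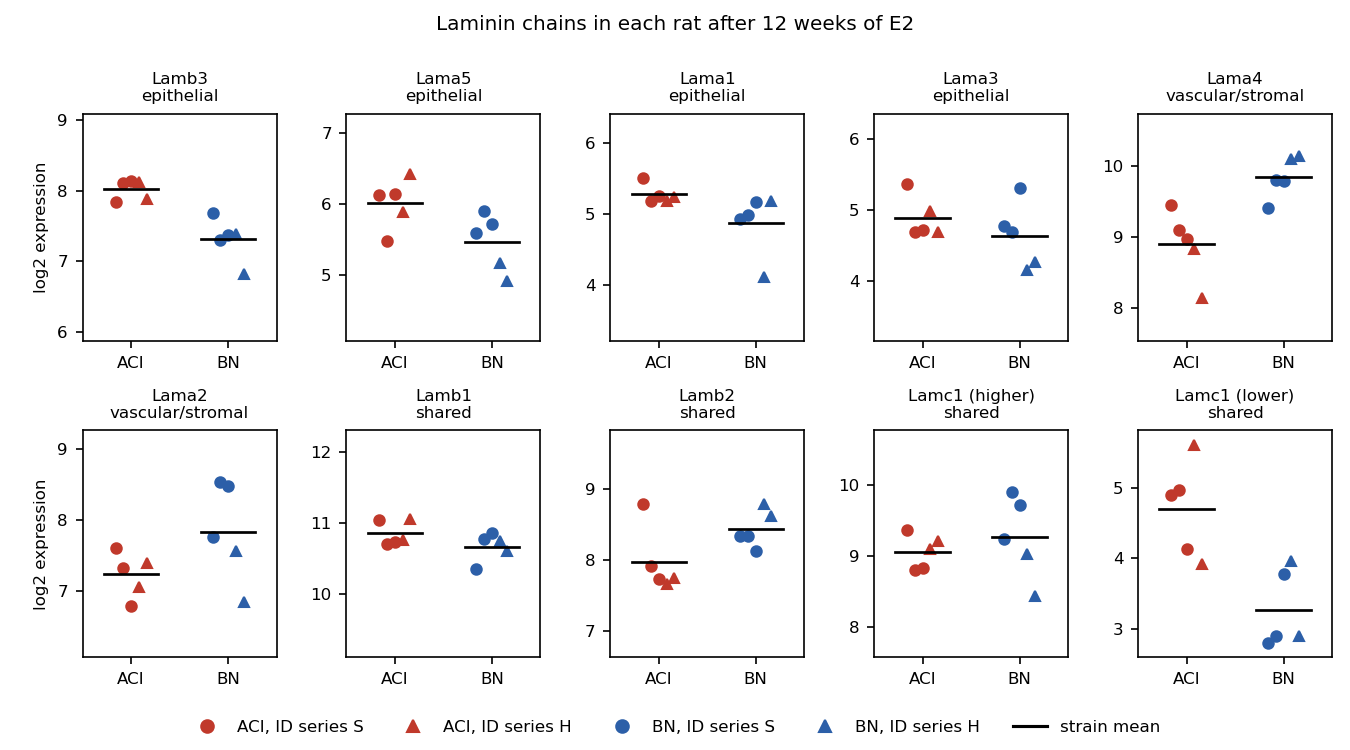
Log2 expression of the 10 laminin probe sets above the floor, 1 panel each, in 5 ACI rats (left, red) and 5 BN rats (right, blue). Points are rats, circles are ID series S, triangles are ID series H, bars are strain means, and every panel spans the same number of log2 units around its own center. *Lamb3* is the panel in which the strains do not overlap, and in the *Lama4* panel only ACI rat 1, at 9.44, reaches the BN values.

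The promoters of *Lamb3* and *Lama4* are shown because these are the chains whose brightest probe set was called, one in each direction, and that of *Lama3* because its product is the alpha chain that assembles with the *Lamb3* product. They are RefSeq sequences of build GRCr8 and run from 250 bases before to 50 bases after the transcription start. Capitals mark matches to the motifs named after the sequences.
*Lamb3*, chr13:107362303-107362602, plus strand: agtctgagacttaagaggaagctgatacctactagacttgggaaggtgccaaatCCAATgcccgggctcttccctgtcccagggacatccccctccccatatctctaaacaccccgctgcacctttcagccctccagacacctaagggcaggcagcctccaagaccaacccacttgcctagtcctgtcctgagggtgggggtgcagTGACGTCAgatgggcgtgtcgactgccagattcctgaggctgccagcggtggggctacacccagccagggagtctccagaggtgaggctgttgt
*Lama3*, chr18:3952517-3952816, plus strand: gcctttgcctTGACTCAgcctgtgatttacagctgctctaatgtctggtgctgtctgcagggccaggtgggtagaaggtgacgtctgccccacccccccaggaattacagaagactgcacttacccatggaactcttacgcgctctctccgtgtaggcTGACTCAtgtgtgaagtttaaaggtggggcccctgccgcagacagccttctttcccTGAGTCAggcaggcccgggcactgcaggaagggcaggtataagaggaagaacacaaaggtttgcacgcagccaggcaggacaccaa
*Lama4*, chr20:43946648-43946947, plus strand: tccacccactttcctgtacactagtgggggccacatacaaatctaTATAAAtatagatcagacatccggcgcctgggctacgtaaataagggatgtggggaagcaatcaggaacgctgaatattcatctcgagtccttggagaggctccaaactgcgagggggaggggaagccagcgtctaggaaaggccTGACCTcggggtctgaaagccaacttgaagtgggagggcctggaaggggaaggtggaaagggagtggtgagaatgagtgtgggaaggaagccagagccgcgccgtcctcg

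Motifs were searched on both strands in these windows. The *Lamb3* promoter held a cyclic AMP response element (TGACGTCA) that starts 44 bases before the transcription start and a CCAAT box (CCAAT) 196 bases before it. The *Lama3* promoter held 3 AP-1 sites (TGACTCA) at 240, 92 and 36 bases before the start. The *Lama4* promoter held a TATA box sequence (TATAAA) 205 bases before the start and 1 estrogen response element half-site (AGGTCA) 60 bases before it. Of the 33469 rat promoters of the same length, 1.83% held the cyclic AMP response element, 4.63% the AP-1 site, 37.5% the CCAAT box, 14.2% the TATA sequence and 16.2% the half-site.

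Of the 9 chains, 8 had a promoter in the RefSeq table and *Lamb2* did not. No full palindromic estrogen response element, which shares letters with the half-site, was found in the 8 windows, and 0.0269% of all promoters held one. GC boxes (GGGCGG), present in 33.1% of all promoters, numbered 5 in the *Lamc1* window, 4 in *Lama5*, 2 in *Lamb1* and 1 in *Lama2*. The windows of *Lamb3*, *Lama3*, *Lama4* and *Lama1* held none. A match is a string of letters and not a measured binding site.

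*Lamb3* (probe set 1391022_at) encodes the beta chain of the laminin that anchors epithelial cells through hemidesmosomes, the junctions that tie keratin filaments to the basement membrane. Its log2 level was 7.84, 8.10, 8.14, 8.12 and 7.88 in ACI rats 1 to 5, against 7.68, 7.30, 7.38, 7.39 and 6.82 in BN rats 1 to 5. The lowest ACI rat was above the highest BN rat, and BN rat 5 lay furthest down. The mean was 8.02 ± 0.144 in ACI rats and 7.31 ± 0.312 in BN rats (SD, n = 5 each), a log2 fold change of 0.70 (SE 0.150, 95% interval 0.36 to 1.04) or 1.63-fold, at a limma adjusted p of 0.0178. The exact two-sided permutation test over all 252 arrangements of the rats gave p = 0.0079, the smallest it can give. The difference was 0.57 in ID series S and 0.90 in ID series H. Without ACI rat 4 the difference was 0.68 and the adjusted p 0.0508, and without any other single rat the call held at an adjusted p of 0.00867 to 0.0491. With replicate number as a block the call was lost (limma adjusted p = 0.0699).

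*Lama3* (1370538_at) encodes the alpha chain of the same trimer, and did not follow *Lamb3* past the test. Its log2 level was 5.36, 4.69, 4.72, 4.98 and 4.69 in ACI rats, against 4.77, 4.69, 5.31, 4.15 and 4.27 in BN rats. The strains overlapped over most of their range, and the lowest values were those of BN rats 4 and 5. The log2 fold change was 0.25 (SE 0.237, 95% interval -0.29 to 0.79, limma adjusted p = 0.596). It was 0.00 in ID series S and 0.63 in ID series H.

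*Lama5* encodes the alpha chain most widespread in adult epithelial basement membranes. Its brightest probe set, 1388932_at, read 6.12, 5.48, 6.13, 5.88 and 6.42 in ACI rats, against 5.59, 5.89, 5.72, 5.16 and 4.91 in BN rats. In 4 of 5 ACI rats it was above the BN median, and ACI rat 2 fell within the BN range together with ACI rat 4. The log2 fold change of 0.55 (SE 0.234, 95% interval 0.02 to 1.09) missed the limma threshold at an adjusted p of 0.186. It was 0.18 in ID series S and 1.12 in ID series H. The other 2 *Lama5* probe sets, 1377428_at and 1396159_at, were at 2.23 on every array and give no measure of this chain.

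*Lama1* (1392926_at) encodes the alpha chain of the early embryonic epithelial basement membrane. Its log2 level was 5.50, 5.18, 5.25, 5.18 and 5.24 in ACI rats, against 4.93, 4.98, 5.16, 4.11 and 5.18 in BN rats. The ACI rats lay within a span of 0.32 and all were above the BN median, while BN rats 3 and 5 were level with the lower ACI rats and BN rat 4 stood well below the rest. The log2 fold change was 0.40 (SE 0.20, 95% interval -0.06 to 0.86). The limma adjusted p was 0.275, and the exact permutation p, not adjusted for the number of probe sets, was 0.0238. The difference was 0.29 in ID series S and 0.57 in ID series H.

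All 4 epithelial chains, by their brightest probe sets, thus had a higher mean in ACI rats, by 0.25 to 0.70 on the log2 scale with a median of 0.47, and 1 of the 4 passed the test. In whole gland RNA, fewer cells of a type and less RNA per cell cannot be told apart. Some epithelial markers differed in the same direction. For this and the other marker lists, the brightest probe set stands for the gene. Of the 14217 genes so measured, 8.29% were called higher in ACI rats and 9.12% higher in BN rats. Of 14 luminal epithelial markers, 5 were called higher in ACI rats and none in BN rats (median log2 fold change 0.45), led by *Ehf*, an epithelial transcription factor (2.81), and *Cldn3*, a tight junction protein (1.92). The luminal keratin genes *Krt7* (-1.53) and *Krt19* (-0.18) gave values of the opposite sign and were not called, and 1 luminal marker was called higher in BN rats without BN rat 5. Of 11 basal and myoepithelial markers, 3 were called higher in ACI rats and none in BN rats (median 0.47), with *Actg2* (1.02) and *Cnn1* (0.51), proteins of the contractile apparatus, leading. *Krt14* (-0.22) and *Krt17* (-0.26), basal keratin genes, were not called. Without BN rat 3 the basal count was 5. The basal master regulator *Trp63* was not named alone by a probe set. The part of these cells in the chain differences was not tested.

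*Lama4* encodes an alpha chain of the basement membranes of small vessels and of fat cells. Its brightest probe set, 1389214_at, read 9.44, 9.10, 8.96, 8.82 and 8.13 in ACI rats, against 9.41, 9.80, 9.78, 10.10 and 10.13 in BN rats. In 4 of 5 ACI rats the value was below that of every BN rat, and the overlap came from ACI rat 1, which exceeded BN rat 1 only. The mean was 8.89 ± 0.483 in ACI rats and 9.84 ± 0.292 in BN rats (SD, n = 5 each), a log2 fold change of -0.95 (SE 0.246, 95% interval -1.52 to -0.39). The level in BN rats was 1.94-fold that in ACI rats, at a limma adjusted p of 0.0382 and an exact two-sided permutation p of 0.0159.

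The *Lama4* call depended on single rats and on the model, while its direction was the same in each of these fits. It was lost with replicate number as a block (limma adjusted p = 0.192), with the ID series as a block (0.0506) and with trended and robust variance (0.0534). Without both BN rats of ID series H the difference was -0.77 at a limma adjusted p of 0.128. When single rats were left out, the call held without ACI rat 1, ACI rat 5 or BN rat 1. It was lost when ACI rat 2, ACI rat 3, ACI rat 4 or any of BN rats 2 to 5 was left out. The limma adjusted p-values were then 0.0665 to 0.0914 and the log2 fold changes -1.01 to -0.88. The difference was -0.50 in ID series S (limma adjusted p = 0.177) and -1.64 in ID series H (0.265), not called in either. The test of the difference between those values gave -1.14 (SE 0.345) at a limma adjusted p of 0.145. The second *Lama4* probe set, 1396066_at, lay at 2.23 in all rats except BN rat 3, at 2.33, and measured nothing above the floor.

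*Lama2* (1390404_at) encodes the alpha chain of muscle and nerve basement membranes, made also by stromal cells. Its log2 level was 7.61, 7.32, 6.79, 7.06 and 7.39 in ACI rats, against 7.76, 8.54, 8.48, 7.56 and 6.85 in BN rats. BN rats 2 and 3 stood above all others, whereas BN rat 5 lay next to the lowest ACI rat. The log2 fold change of -0.60 (SE 0.335, 95% interval -1.37 to 0.16) did not pass the test (limma adjusted p = 0.334). It was -1.02 in ID series S and 0.02 in ID series H, so the direction seen over all rats came from the rats of ID series S.

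Both vascular and stromal chains had a higher mean in BN rats, and 1 of the 2 passed the test. Some markers of the cell types that deposit or border these chains were also called higher in BN rats, while more members of each list were not called. Of 14 endothelial markers, 6 were called higher in BN rats and none in ACI rats (median log2 fold change -1.09), led by the clotting protein gene *Vwf* (-2.46) and *Eng* (-1.74), a co-receptor of the TGF-beta family. The mean of the endothelial list was 5.81 to 6.55 over ACI rats and 6.96 to 7.32 over BN rats, without overlap. *Lama4* followed the order of these means in part. Among ACI rats, rat 1 was highest and rat 5 lowest in both, but BN rat 1, lowest in *Lama4*, had the highest endothelial mean of the 10 rats, 7.32. The endothelial count was 2 without ACI rat 3, ACI rat 4 or BN rat 2, and 3 without ACI rat 2, ACI rat 5 or BN rat 1.

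Of 9 markers of pericytes and vascular smooth muscle, 3 were called higher in BN rats (median -0.64), with the channel subunit gene *Abcc9* (-2.87) and the adhesion molecule gene *Mcam* (-1.45, with a second probe set at 0.54 not called) furthest apart, and 1 was called without ACI rat 2 or ACI rat 3. The other called gene, *Kcnj8*, was named after its value was seen. It was near background in ACI rats and had a mean of 3.90 in BN rats, so it gives no measured fold. *Des* (1.05) and *Higd1b* (0.27) had a higher mean in ACI rats and were not called, while 6 of the 9 had a higher mean in BN rats. Of 11 fibroblast markers, 4 were called higher in BN rats (median -0.97), led by *Fn1*, fibronectin (-1.96), and *Mfap5*, a microfibril protein (-1.63). That count was 2 without ACI rat 4 or BN rat 2 and 7 without BN rat 5. Of 11 adipocyte markers, 2 were called higher in BN rats (median -0.69), *Plin4*, a lipid droplet protein (-1.65), and the hormone gene *Adipoq* (-0.86). The adipocyte count was 5 without ACI rat 1 and 0 without any other rat except BN rat 3. A count this small does not set the list apart from the 9.12% of all genes called higher in BN rats. *Lama4* also followed the order of the adipocyte means in part. ACI rat 1 was the highest ACI rat in both, and BN rats 4 and 5 the highest BN rats. ACI rat 1 exceeded BN rat 1 in both, and in the adipocyte mean (10.74) also BN rats 2 and 3. Within strains the adipocyte mean was lowest in ACI rat 3 (9.63) and BN rat 3 (10.21). *Lama4* was lowest in ACI rat 5 and BN rat 1. None of the 4 lists of vascular and stromal cells had a marker called higher in ACI rats, and their part in the *Lama4* and *Lama2* differences was not tested.

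The list of 13 skeletal muscle markers, a tissue rich in *Lama2*, had means of 6.54 to 10.7 over ACI rats and 3.55 to 9.75 over BN rats. None was called, though 12 of the 13 had a higher mean in ACI rats and the median log2 fold change was 3.16. In ACI rats 1 to 5 the muscle mean was 6.54, 10.7, 9.15, 10.5 and 9.57. In BN rats 1 to 5 it was 3.62, 7.09, 3.55, 7.15 and 9.75. The mean of the fibroblast list was 10.1, 10.3, 9.94, 9.97 and 9.90 in ACI rats 1 to 5. In BN rats 1 to 5 it was 10.8, 11.3, 11.6, 11.3 and 10.6. The part of either cell type in the *Lama2* values was not tested. Of 8 Schwann cell markers, 1 was called higher in ACI rats (*Mbp*, a myelin protein, 1.76) and 2 in BN rats (*Pmp22*, -1.53, and *Cnp*, -1.38, both of myelin), with a median of -0.28. For *Pmp22* and *Mbp*, 1 other probe set each had the opposite sign, at 1.22 and -0.72, and was not called. When a single rat other than BN rat 3 or BN rat 5 was left out, no Schwann cell marker was called higher in ACI rats. These counts do not set the Schwann cell list apart from the shares over all genes.

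**Figure D2:**
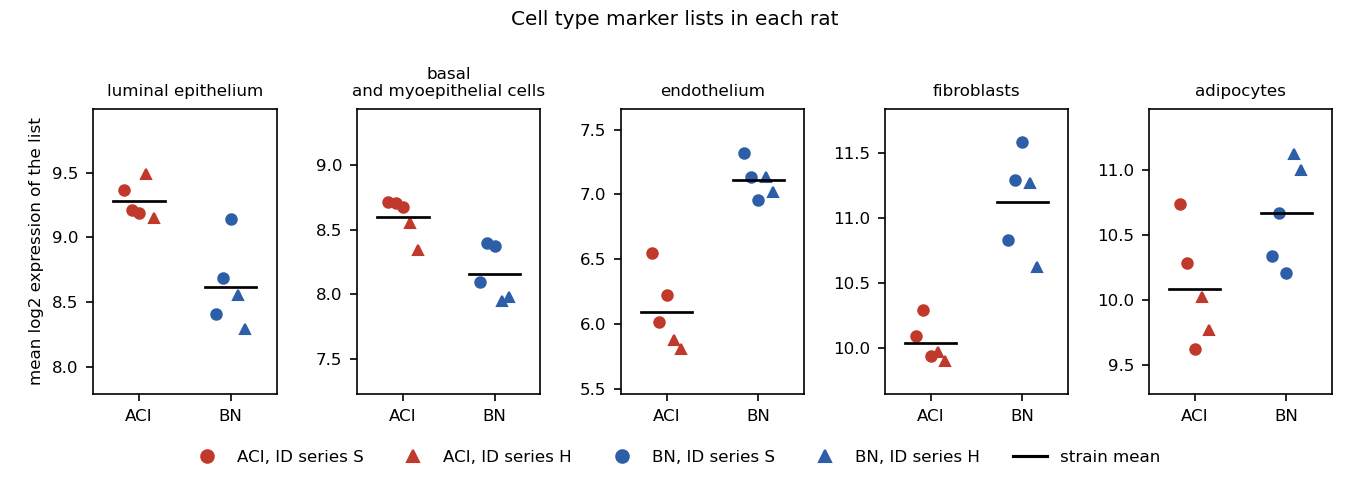
Mean log2 expression of 5 cell type marker lists in 5 ACI rats (left, red) and 5 BN rats (right, blue). Points are rats by ID series (circles S, triangles H), bars are strain means, and every panel spans the same number of log2 units. The luminal list spans 9.15 to 9.49 in ACI rats and 8.30 to 9.14 in BN rats, and the endothelial list lies lower in every ACI rat than in every BN rat.

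*Lamb1* (1373210_at) encodes the beta chain found in most trimers. Its log2 level was 11.04, 10.71, 10.74, 10.76 and 11.06 in ACI rats, against 10.36, 10.78, 10.86, 10.75 and 10.61 in BN rats. ACI rats 1 and 5 were above all BN rats and the other 3 fell among them. The log2 fold change of 0.19 (SE 0.114, 95% interval -0.07 to 0.45, limma adjusted p = 0.382) was the smallest in size among the brightest probe sets of the 9 chains. It was 0.16 in ID series S and 0.23 in ID series H.

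*Lamb2* (1367880_at) encodes the beta chain of mature vessels, muscle and nerve endings. Its log2 level was 8.79, 7.91, 7.73, 7.66 and 7.75 in ACI rats, against 8.33, 8.34, 8.13, 8.79 and 8.62 in BN rats. ACI rats 2 to 5 lay below every BN rat, and ACI rat 1 was level with the highest of them. Over all rats the log2 fold change was -0.47 (SE 0.234, 95% interval -1.01 to 0.06) at a limma adjusted p of 0.264. Without ACI rat 1 it was -0.68 at an adjusted p of 0.0217, so that 1 rat decided whether this chain was called. The difference was -0.12 in ID series S and -1.0 in ID series H.

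*Lamc1* encodes the gamma chain of most trimers, and its 2 probe sets disagreed. The brighter one, 1371322_at, read 9.37, 8.81, 8.83, 9.11 and 9.21 in ACI rats, against 9.25, 9.91, 9.73, 9.03 and 8.44 in BN rats. The ACI values lay within the BN range, and the log2 fold change was -0.21 (SE 0.276, 95% interval -0.84 to 0.43, limma adjusted p = 0.716). It was -0.63 in ID series S and 0.43 in ID series H. The dimmer one, 1370993_at, read 4.89, 4.96, 4.14, 5.60 and 3.92 in ACI rats, against 2.81, 2.90, 3.78, 3.97 and 2.90 in BN rats. It was near background in all BN rats, and ACI rat 5 also lay under 4.

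For that dimmer *Lamc1* probe set the mean was 4.70 in ACI rats and 3.27 in BN rats, and the level in ACI rats was at least 1.63-fold that in BN rats, at a limma adjusted p of 0.0436 and an exact permutation p of 0.0159. The call was lost without any single rat except ACI rat 5 or BN rat 4, at adjusted p-values of 0.0507 to 0.104. A block for replicate number (0.0850), a block for ID series (0.0572) and trended and robust variance (0.0551) also ended it. With all values under 4 set to 4, the difference was 0.72 at an adjusted p of 0.189. The strain direction of *Lamc1* is therefore not settled by these arrays.

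**Figure D3:**
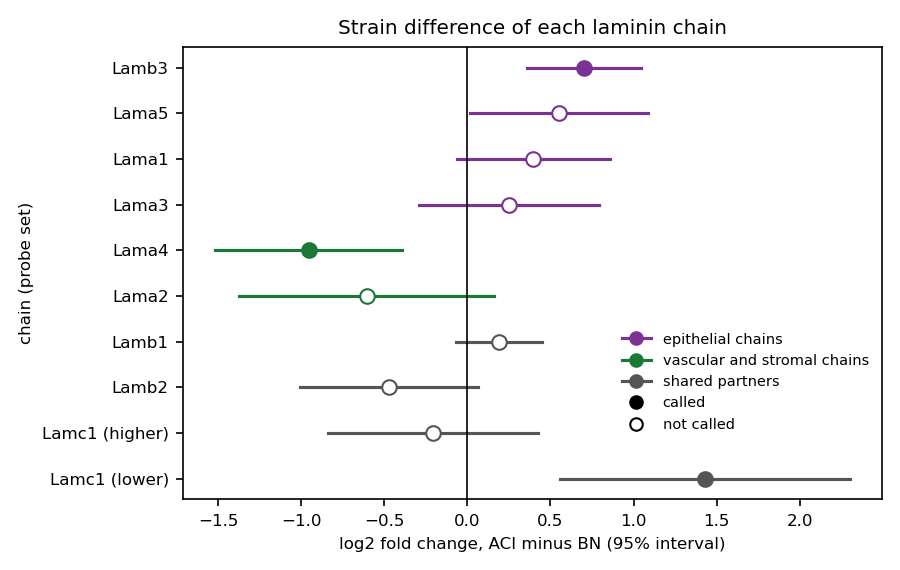
Log2 fold change, ACI minus BN, of the 10 laminin probe sets above the floor, with 95% intervals from limma. Colors give the class of chain and filled points were called at an adjusted p under 0.05. The 4 epithelial chains lie right of 0 and both vascular and stromal chains lie left of it, with *Lamb3* and *Lama4* called, while the 2 probe sets of *Lamc1* fall on opposite sides. The dimmer one (lower) was near background in BN rats, so its point is a fitted value and no measured fold.

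The chains were then set against each other within each rat, which removes a shift common to all chains of an array. All 13 probe sets, those at the floor included, were each centered on their mean over the 10 arrays. The probe sets of a chain and then the chains of a class were averaged. The floor probe sets of *Lama5* and *Lama4* therefore draw the values of these chains toward 0. The epithelial mean minus the vascular and stromal mean was 0.28, 0.27, 0.66, 0.58 and 0.52 in ACI rats 1 to 5, against -0.16, -0.73, -0.51, -0.70 and -0.22 in BN rats 1 to 5. Every ACI rat was above 0 and every BN rat below it. The strain means were 0.46 ± 0.178 in ACI rats and -0.46 ± 0.264 in BN rats (SD, n = 5 each), 0.93 apart. Centring makes the strain means equal and opposite, so 0 is only their midpoint and not a level at which the classes are equal. As the chains were grouped with earlier results of these data known, this value is a description and carries no test.

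This within-rat difference was larger than the spread among rats of a strain, and both classes entered it. Taken alone, neither class set the strains clearly apart. In the epithelial mean the lowest ACI rat was at 0.097 and the highest BN rat at 0.087. The vascular and stromal means of the strains overlapped, and with the brightest probe set of each chain those of both classes did. The epithelial mean was 0.38 higher in ACI rats and the vascular and stromal mean 0.55 lower. With the brightest probe set of each chain, which leaves out those at the floor, ACI minus BN was 0.48 and -0.78. The within-rat difference was then 1.25. The shared partners differed by 0.11, with ACI rats at -0.20 to 0.47 and BN rats at -0.28 to 0.16, and the sign turned to -0.16 with the brightest probe set of each chain, which leaves out the dimmer *Lamc1* probe set. The difference was 0.87 in ID series S and 1.01 in ID series H, 0.996 without *Lama5*, 1.02 with *Lama3* and *Lamb3* as the sole epithelial chains, and 0.863 to 1.005 when each rat was left out in turn. The rats of a strain reached their values by different chains. In BN rats 4 and 5 the epithelial chains were low, at -0.51 and -0.38, whereas in BN rats 2 and 3 the vascular and stromal chains were high, at 0.61 and 0.60.

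**Figure D4:**
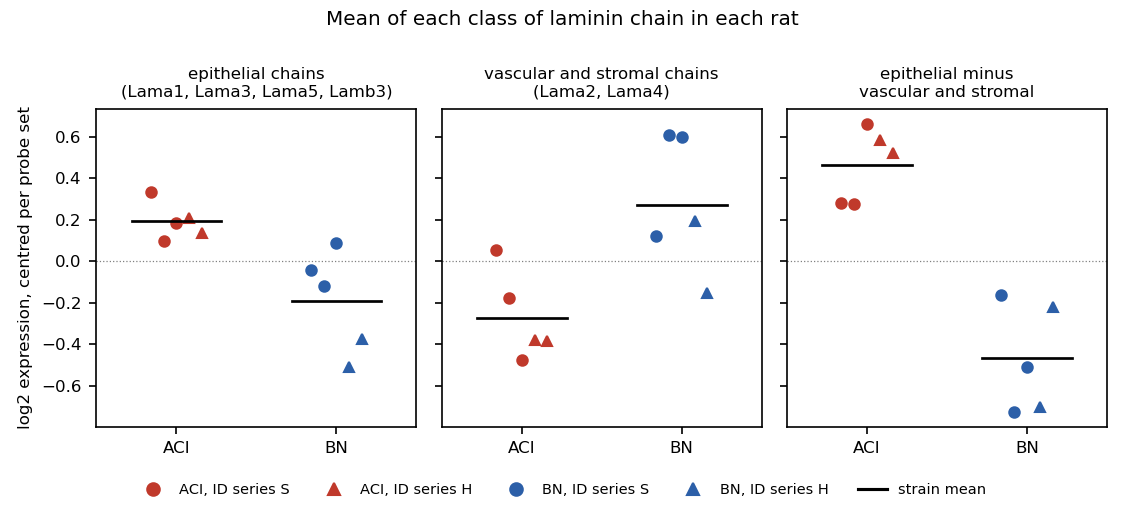
Mean centered log2 expression of the epithelial chains (left), of the vascular and stromal chains (middle) and their difference (right), in 5 ACI rats (left of each panel, red) and 5 BN rats (right, blue). Points are rats by ID series (circles S, triangles H) and bars are strain means. All member probe sets enter the means, those at the floor included. The difference lies at 0.27 to 0.66 in ACI rats and at -0.73 to -0.16 in BN rats.

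The spread among rats differed between chains. The SD was larger in BN rats for 7 of the 10 probe sets, and *Lama1* had an SD of 0.133 in ACI rats and 0.440 in BN rats. For *Lama4* and *Lamb2* it was larger in ACI rats, at 0.483 and 0.469, against 0.292 and 0.261 in BN rats. ACI rat 1 was the highest ACI rat for 6 of the 10 probe sets, which belong to *Lama1*, *Lama2*, *Lama3*, *Lama4*, *Lamb2* and *Lamc1*, and the lowest for *Lamb3*. BN rat 5 was the lowest BN rat for the brighter *Lamc1* probe set, *Lama2*, *Lama5* and *Lamb3* and the highest for *Lama4* and *Lama1*.

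*Lamc3*, a gamma chain outside the member list, was near background in both strains (log2 fold change -0.18, limma adjusted p = 0.503).

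Among laminin receptors, hemidesmosome genes and dystroglycan glycosylation genes, the genes called were all higher in ACI glands, while most members of each list were not called. For genes outside the family, the brightest probe set stands for the gene, and 8.29% of the 14217 genes so measured were called higher in ACI rats and 9.12% higher in BN rats. Of 13 laminin receptor genes, 4 were called higher in ACI rats and none in BN rats, 8 of the 13 had a higher mean in BN rats, and the median log2 fold change was -0.08. *Itga1*, an integrin chain that binds collagen and laminin, had a log2 level of 6.18 ± 0.558 in ACI rats and 3.63 ± 0.693 in BN rats (SD, n = 5 each), a log2 fold change of 2.55 (SE 0.388, limma adjusted p = 0.00367). Its BN values ran from 2.97 to 4.79, on both sides of the background level of 4, so the size of this fold is uncertain. *Itga6*, the laminin-binding integrin chain of hemidesmosomes, was at 12.9 ± 0.159 in ACI rats and 11.7 ± 0.522 in BN rats, 1.19 apart (SE 0.238, adjusted p = 0.0133). *Dag1*, dystroglycan, and *Sdc4*, a heparan sulfate proteoglycan of the cell surface, were the other called receptors, at 1.11 and 0.97, and were added to the named genes after their values were seen.

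The *Itga6* difference was larger in its dimmer probe sets. At 2 of them the log2 fold change was 3.58 and 3.96, with limma adjusted p-values of 0.00194 and 0.000358. The means of these 2 were 7.82 and 8.78 in ACI rats. In BN rats they were 4.24 and 4.81, not far above the level of 4 used for background. A further probe set lay at or next to the floor. The integrin partners *Itgb1* (-0.57) and *Itgb4* (0.32), which pair with *Itga6*, did not pass the test. Of 6 hemidesmosome genes, 2 were called, both higher in ACI rats (median 0.16). They were *Itga6* and *Col17a1*, the transmembrane collagen of this junction, at 8.63 ± 0.604 in ACI rats and 6.69 ± 0.557 in BN rats (1.94, SE 0.359, adjusted p = 0.00924). *Dst* and *Plec*, which link the junction to keratin, gave -0.48 and -0.08 and were not called.

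Dystroglycan binds laminin through sugar chains that dedicated enzymes add. Of 8 genes of its glycosylation and complex, 2 were called higher in ACI rats and none in BN rats (median 0.33). *Pomgnt1* was at 8.29 ± 0.121 in ACI rats and 6.73 ± 0.747 in BN rats (1.56, SE 0.330, limma adjusted p = 0.0173). *Pomt1*, which adds the first mannose, was at 8.30 ± 0.306 in ACI rats and 7.05 ± 0.319 in BN rats (1.26, SE 0.193, adjusted p = 0.00381). The other 8 of the 16 listed genes were not named alone by a probe set.

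Of 22 other basement membrane components measured, 4 were called higher in BN rats, none was called higher in ACI rats and 18 were not called (median -0.35). *Smoc2*, a calcium-binding matrix protein, gave 1.74 without overlap between the strains and was not called (limma adjusted p = 0.0639), and 1 component was called higher in ACI rats without BN rat 3. *Col15a1*, a collagen at the border of basement membrane and stroma, was at 7.46 ± 0.387 in ACI rats and 8.93 ± 0.576 in BN rats (log2 fold change -1.47, SE 0.303, limma adjusted p = 0.0153). The second *Col15a1* probe set gave -0.75 and was not called (limma adjusted p = 0.0517). *Fbln1*, a fibulin that binds laminin, was near background in ACI rats and at least 1.32-fold higher in BN rats. A second *Fbln1* probe set, with a mean of 2.23 in ACI rats and 2.32 in BN rats, was not called. *Col4a5*, a chain of the network-forming collagen, and *Nid1*, nidogen, which bridges laminin to that network, gave -1.21 and -0.77 and were added to the named genes after their values were seen. Of 22 genes, 5 were near background in both strains, among them *Col4a4* and *Col4a6*.

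Among proteases that cut laminin or its neighbors, those called were again on the BN side. The test called 3 of the 11 higher in BN rats and none in ACI rats (median -0.59). *Mmp7*, matrilysin, was at 2.37 in every ACI rat and at 9.83 ± 0.440 in BN rats (SD, n = 5), at least 56.8-fold higher in BN rats (limma adjusted p = 3.28e-07). *Mmp9*, a gelatinase, was near background in ACI rats and at least 1.56-fold higher in BN rats. A second *Mmp9* probe set, with a mean of 2.23 in ACI rats and 2.74 in BN rats, was not called. *Plat*, tissue plasminogen activator, differed by -1.77 and was also named after its value was seen. *Mmp2* (-1.22) and *Mmp14* (0.74), which are known to cut the hemidesmosomal laminin in rat, did not pass the test. In the BN glands, 6 of 7 lymphocyte markers were called higher (median -3.97, *Ms4a1* and *Cd3d* leading) and 5 of 9 macrophage markers (median -1.37, *Itgam* and *Cd163* leading). None of either list was called higher in ACI rats. The macrophage markers *C1qb* (1.20, limma adjusted p = 0.0502) and *C1qa* (0.11) had the opposite sign and were not called. Without ACI rat 5, BN rat 4 or BN rat 5, 1 macrophage marker was called higher in ACI rats. The mean of the lymphocyte list was 4.15 to 4.64 over ACI rats, 5.05 in BN rat 3 and 8.73 to 9.69 in the other BN rats. *Ms4a1* lay at 2.23 in every ACI rat and in the lowest BN rat. Without any single rat except BN rat 3, the lymphocyte count was 3. The part of these cells in the protease levels was not tested.

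**Figure D5:**
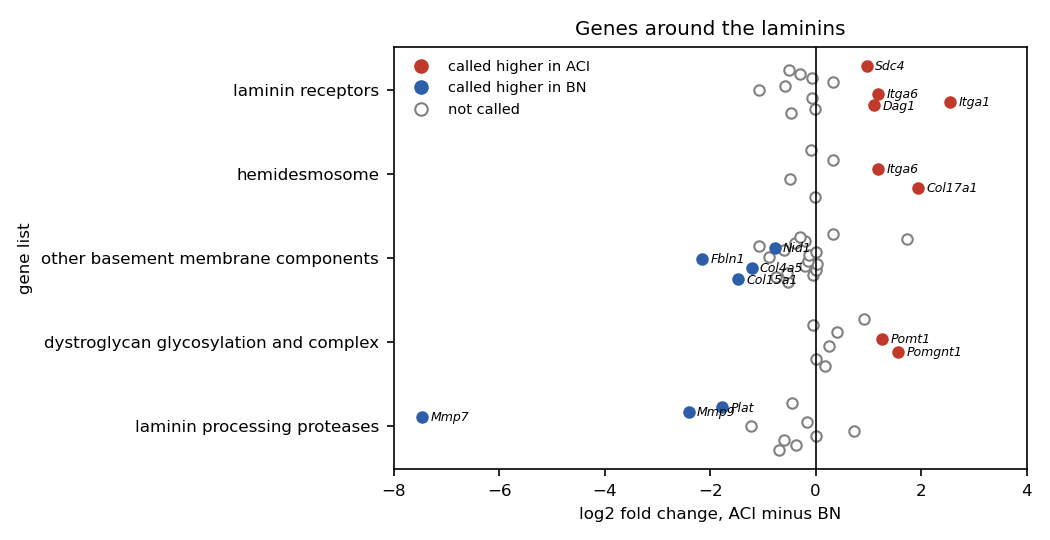
Log2 fold change, ACI minus BN, of each measured gene in 5 lists around the laminins. Red points were called higher in ACI rats, blue points higher in BN rats, and open points were not called. The called receptors, hemidesmosome genes and dystroglycan glycosylation genes lie right of 0, while the called basement membrane components and proteases lie left of it, with *Mmp7* furthest left. Points of genes near background in 1 strain, *Mmp7* among them, are fitted values, and their folds in the text are minimums.

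The genes with the pattern most like each called chain over the 10 arrays were found by the root mean square difference of centered log2 values, among 9361 genes with a mean of at least 4. For *Lama4* they were *Anxa6*, a membrane-binding annexin (0.141), *Flot2*, a membrane raft protein (0.198), and *Ano10*, an anoctamin (0.202). *Anxa6* ran at 8.52, 8.27, 8.12, 7.98 and 7.20 in ACI rats, against 8.39, 8.66, 8.69, 9.34 and 8.93 in BN rats, and shared with *Lama4* its lowest rat, ACI rat 5. For *Lamb3* they were *Mrpl46*, of the mitochondrial ribosome (0.129), *Alg14*, of protein glycosylation (0.135), and *Lrrc42* (0.141). These likenesses describe 10 arrays of 2 strains and carry no test.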

How the data were processed

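Mammary gland RNA of 5 ACI and 5 BN rats was hybridized to 1 Affymetrix Rat Genome array per rat. The authors made the deposited log2 values, 1 per probe set and array, with GCRMA 2.18.1 according to the submitters' processing notes, and they were used unchanged. No source used here says which arrays were normalized together. Of 31099 probe sets, 57 controls were left out. Symbols came from the platform annotation, updated by gene ID from the RefSeq table of GRCr8, and 20826 probe sets carry 1 symbol, 436 several and 9780 none. Promoters came from the RefSeq table of the same build.

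The strains were compared in limma 3.58.1 (R 4.3.3) by a model with a single strain term and Benjamini-Hochberg adjustment over 31042 probe sets, after the fit had been tested on simulated data. The number of arrays limits the precision. A fold against a strain near background takes that strain at 4. Named genes were every member probe set, from each list the 2 called genes that differed most on either side, and the 3 genes most like each called member by its brightest probe set. Genes named as not called or near background, and the defining epithelial genes, were chosen after their values were seen. Members and lists were chosen with earlier results of these data known. The main fit does not pair rats by replicate number. Deviations of same-numbered rats correlated at -0.202 to 0.201, which cannot show whether these rats were handled together. Alternatives were blocks for replicate number and ID series, each ID series alone, a filter and a floor at 4, quantile normalization, centring, trended variance, array weights, the methods' t-test, and leaving out each rat in turn.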

Additional observations from a re-analysis of the deposited data

Results flagged for a closer look

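Of 22 groups of 5 rats tested for a rat far from the others, 3 were flagged, and chance flags about 1 in 20 groups. For *Lama1*, ACI rat 1 was at 5.50 with the nearest ACI rat at 5.25, and BN rat 4 was at 4.11 with the nearest BN rat at 4.93. For *Lamb2*, ACI rat 1 was at 8.79 with the nearest ACI rat at 7.91. ACI rat 1 also had the highest mean of the ACI rats in several marker lists. These were endothelium (6.55), adipocytes (10.7), Schwann cells (7.91), basal and myoepithelial cells (8.71) and lymphocytes (4.64). Its skeletal muscle mean (6.54) was the lowest of the ACI rats. The part of these cell types in its laminin values was not tested.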

How the results depend on the processing

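The number of probe sets called was 3930 over the array. It was 1926 with the replicate block, 100 within ID series H, 6350 without both BN rats of that series, 8397 with array weights, and 2598 to 4618 when each rat was left out in turn, lowest without ACI rat 4. The number of laminin probe sets called was 3. It was 0 with the replicate block, 1 with the ID series block, 0 within ID series S, 0 within ID series H, 1 with trended and robust variance, and 0 to 3 when each rat was left out. It was 0 without ACI rat 4 and 1 without ACI rat 2, ACI rat 3, BN rat 2, BN rat 3 or BN rat 5. With the methods' t-test 3 laminin probe sets passed at p under 0.05, and 3 also after Benjamini-Hochberg adjustment (7434 and 3962 over the array).

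The epithelial minus vascular and stromal difference of 0.93 was 1.25 with the highest probe set of each chain and 0.863 to 1.005 when each rat was left out. *Lama2* turned to 0.02 within ID series H and *Lamc1*, by its brighter probe set, to 0.43 there. *Lama3* turned to -0.035 without both BN rats of series H. Over 10 member probe sets and 229 alternative values, 191 kept direction and side of the threshold, 32 lost a call, 3 gained one and 3 turned. *Lama2* gained its call without both BN rats of series H and with array weights (-1.03 and -1.02), and *Lamb2* without ACI rat 1. The cause was not tested. Values under 4 carry little signal over background, which limits the dimmer *Lamc1* probe set. The 34 to 55 calls over all pathway and marker lists when each rat was left out stayed within 1.5 times the total.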
